A study of Gallus gallus with 6 samples.

Results

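LL-only regions are stretches of the chicken genome that were called open in the abdominal fat of at least 2 of 3 birds of the line labelled LL and in none of 3 birds of the line labelled FL. There were 1658 of them among 85060 union regions. They were chosen by the presence or absence of peaks in these same libraries. Peaks shorter than the shortest peak of LL replicate 3, whose list has the highest lower limit of the 6, were left out, and this limit is the length minimum below. A union region is the merged span of the kept peaks that overlap by at least 1 bp in any of the 6 libraries, and a member had a kept peak in 2 or 3 LL libraries and in 0 FL libraries. Members made up 1.95% of all union regions, and this share was fixed by the choice itself, so nothing is read from it.

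The samples were abdominal fat from 3 LL birds and 3 FL birds of the NEAUHLF population, drawn at random from a pool of 330 chickens, with 1 ATAC-seq library per bird. NEAUHLF is known as a broiler population with a lean line and a fat line, selected in opposite directions for abdominal fat. The labels give the lines as LL and FL alone. No treatment is labelled, and the sources used here give neither age nor sex. Abdominal fat is a bulk tissue with fat cells, vessels, immune cells and mesothelium, so a larger share of one cell type and a wider opening per cell cannot be told apart.

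ATAC-seq uses the transposase Tn5, which inserts adapters where DNA is not wrapped in nucleosomes or covered by other proteins. Promoters are open in many cell types and lie at gene ends. Distal open regions inside or between genes are often enhancers, which act in fewer cell types and bind factors such as C/EBP proteins and PPARG in fat cells.

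The 6 lists differed widely in length. With the length minimum, LL replicates 1 to 3 had 71095, 22441 and 15628 peaks, and FL replicates 1 to 3 had 52066, 18715 and 12676. The lines overlapped, at 36388 ± 30249.6 peaks in LL and 27819 ± 21214.5 in FL (SD, n = 3 each; exact two-sided permutation p = 0.6, where 0.1 is the smallest possible). The genome-wide background, in fragments over a base, stands for depth. It was 8.1, 5.8 and 8.73 in the LL libraries and 8.26, 4.9 and 2.23 in the FL libraries (exact permutation p = 0.3). Divided by the length in bp of the shortest peak of each list, it was 0.0488, 0.0341 and 0.049 in LL replicates 1 to 3. In FL replicates 1 to 3 the divided value was 0.0565, 0.0395 and 0.0199 (exact permutation p = 0.7). The length minimum removed 3.15%, 3.75% and 0% of the LL lists, against 10.3%, 41.6% and 45.3% of the FL lists.

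Most members were shared by the same pair of birds. LL replicates 1 and 2 alone shared 1230 members, or 74.2%. LL replicates 1 and 3 alone shared 244, and LL replicates 2 and 3 alone shared 53. Peaks in all 3 LL libraries were found in 131 members, which is 0.154% of all union regions. LL replicate 1, with the longest list, thus held a peak in 1605 of the 1658 members, LL replicate 2 in 1414 and LL replicate 3 in 428. The mirror set, with peaks in 2 or 3 FL libraries and in no LL library, had 596 regions, or 0.701% of all union regions, 59 of them in all 3 FL libraries.

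**Figure D1:**
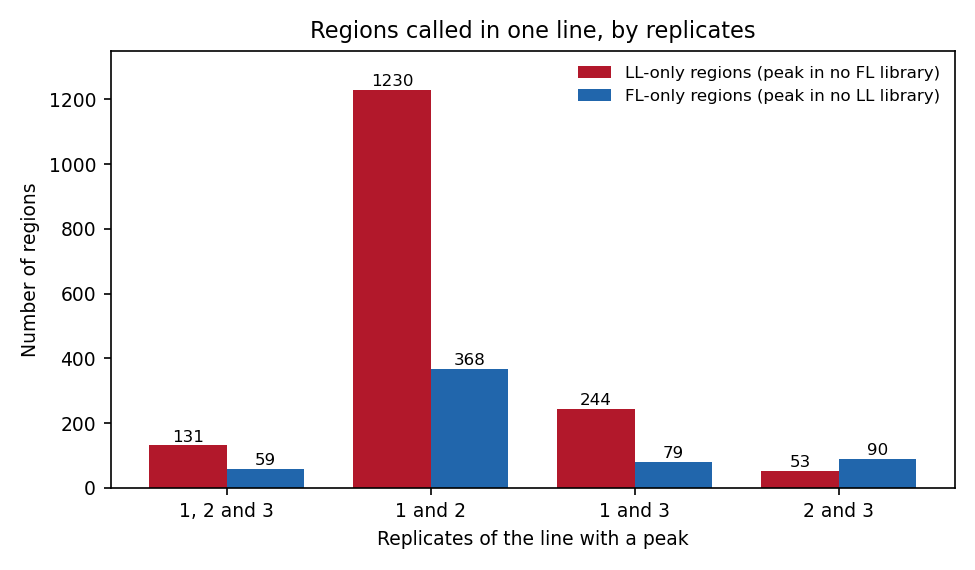
Number of LL-only regions (red) and FL-only regions (blue) on the vertical axis, by which replicates of that line had a peak. LL replicates 1 and 2 alone account for 1230 of the 1658 LL-only regions, and 131 were called in all 3 LL libraries.

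The number of members rested on the longest FL list. Of the 22673 regions with a peak in 2 or 3 LL libraries, 7.31% had none in FL. A further 9635 had a peak in 1 FL library, and in 9461 of these it was FL replicate 1. Without FL replicate 1 there would be 11137 LL-only regions. Without LL replicate 1 there were 193, without LL replicate 2 there were 375, and without LL replicate 3 there were 1362. With an LL library left out the rule was stricter, since both of the others had to hold a peak. When each list was shortened to its 12676 best peaks by q-value, 1678 regions met the rule, but they covered 93 of the 1658 members, or 5.61%. The 131 members of all 3 LL libraries include the 12 best-ranked regions described below. These 12 also met the rule at equal list lengths, but their choice by rank fixed that outcome, so nothing is read from it.

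Some members held short FL peaks that the length minimum had removed. An FL peak below it lay in 458 members, or 27.6%, and 1200 members held no FL peak of any length. By library, 333 members held such a peak of FL replicate 1, 76 one of FL replicate 2 and 124 one of FL replicate 3. These peaks had a median fold enrichment of 2.94, 3.56 and 4.34 in FL replicates 1 to 3 and a median percentile of 73.1%, 47.7% and 71.6% of the full lists, so that those of FL replicate 2 were of middling rank. Of these peaks, 5 of FL replicate 2 and 3 of FL replicate 3 stood in the top 10% of their full list. Among members of all 3 LL libraries the share with a short FL peak was 38.9%, or 51 of 131. In the mirror set 5.2% of the regions held an LL peak below the minimum.

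Close to the length minimum, 142 members held a short FL peak within 10 bp below it. In 209 members the shortest LL peak was within 10 bp above it. Of the 1200 members without a short FL peak, 16.5% had an FL peak of any length within 1 kb and 59.2% within 5 kb, at a median distance of 3783.5 bp. Counting all 1658 members, with or without a short FL peak, 70.5% had an FL peak within 5 kb. In the mirror set, counted the same way, 46.8% of the 596 regions had an LL peak within 5 kb. The number of members with no FL peak within 50 kb was 12, or 0.724%. In the mirror set 47 regions, or 7.89%, had no LL peak within 50 kb. Of the 12 members, 1 lay inside GPC6 and 1 inside its neighbour GPC5, which both encode glypicans of the cell surface. Others lay inside PTPRD, a receptor tyrosine phosphatase, ARPP21 and FSTL5, and some had no named coding gene within 100 kb. These genes were named here after their values were seen.

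Few members stood in the top 10% of an LL list. The within-list percentile ranks a peak by q-value among the kept peaks of its own list, with 0 for the strongest. In the top 10% there were 10 of 1605 members in LL replicate 1, 16 of 1414 in LL replicate 2 and 29 of 428 in LL replicate 3. In LL replicate 1, 201 members were in the top 25%. The median member stood at 47.9% in LL replicate 1, at 74.3% in LL replicate 2 and at 76.2% in LL replicate 3. The fold enrichment over local background, as the authors' peak caller gave it, had a median of 4.62, 3.24 and 2.78 in LL replicates 1 to 3, against 4.4, 3.65 and 3.06 for all kept peaks of those lists. The lists with fewer peaks thus held their members in the weaker part, whereas in LL replicate 1 the median member was close to the median peak. The choice left out regions with a kept FL peak, and calls and ranks both rest on peak strength. Nothing is therefore read from these ranks.

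At the median, members had no more fragments behind the call than all kept peaks of the same list. The median pileup at a member's peak, solved from the fold enrichment and p-value, was 60 fragments in LL replicate 1, 25 in LL replicate 2 and 31 in LL replicate 3. Over all kept peaks of these lists it was 60, 33 and 37. The smallest pileup of any kept peak was 19, 17 and 22 in these libraries and 20, 15 and 10 in FL replicates 1 to 3. Absence of a kept FL peak therefore does not mean absence of signal.

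Members called in all 3 LL libraries ranked higher, but calls and ranks both rest on peak strength, so nothing is read from the order. Their median percentile was 36.7%, 55.3% and 68.9% in LL replicates 1 to 3, against 48.9%, 75.5% and 77.6% for members called in 2 LL libraries. In the top 10% of all 3 LL lists there were 4 of the 131, in the top 25% there were 6, and in the upper part of each list, to 50%, there were 16.

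**Figure D2:**
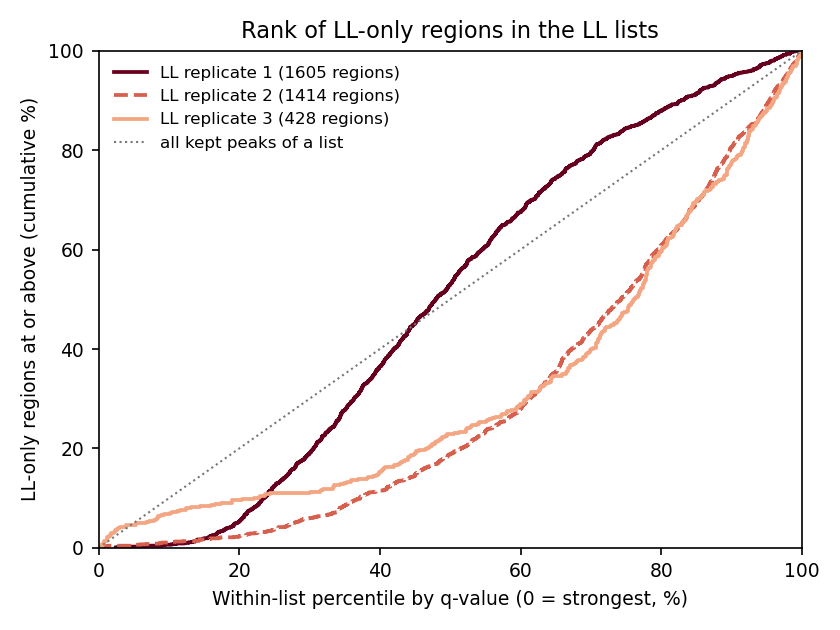
Cumulative share of LL-only regions (vertical axis, %) by within-list percentile of their peak (horizontal axis, 0 is the strongest) in each LL library; the dotted line is what all kept peaks of a list give. The medians are 47.9% in LL replicate 1, 74.3% in LL replicate 2 and 76.2% in LL replicate 3.

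Members lay inside genes more than at gene ends. Classed by the summit of the best-ranked peak, 63.9% were inside a gene, 26.1% outside genes and 9.95% at a gene end, that is within 1 kb of an annotated start or end (95% Wilson intervals 61.6% to 66.2%, 24.1% to 28.3% and 8.6% to 11.5%, counting error only). The table of genes has no strand and no exons, so promoters, introns and exons were not separated. Regions called in 2 or 3 libraries in other patterns were at gene ends in 14.6% of 30081 cases, all union regions in 18.5%, and regions of all 6 libraries in 73.1%. The mirror set was at gene ends in 22.8%. The share inside a gene was 62.2% in the other patterns, 57.9% over all union regions and 47.5% in the mirror set. The share at gene ends in members was 10%, 9.48% and 12.1% for those with a peak in LL replicates 1, 2 and 3, and 13% for those in all 3. With windows around the summits merged in place of whole peaks, it was 18.4%, but shares of the other sets in that setting are not given here. No test of these shares was run.

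**Figure D3:**
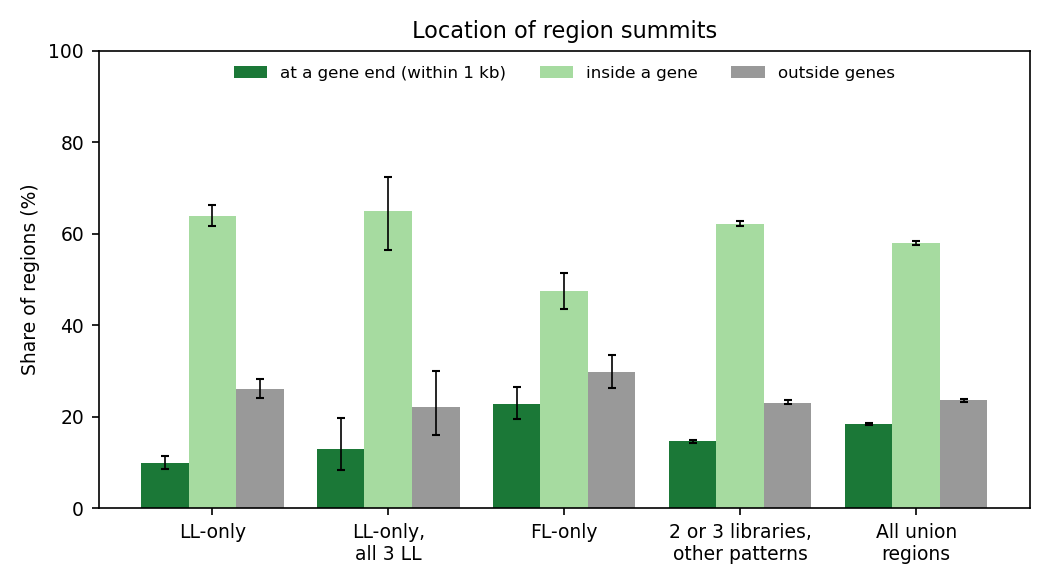
Share of regions (vertical axis, %) by where their summit lies, for LL-only regions, FL-only regions and the wider sets; bars show 95% Wilson intervals, which cover counting error only. Gene ends hold 9.95% of LL-only regions, 22.8% of FL-only regions and 18.5% of all union regions.

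A coding gene lay within 1 kb of 1090 members, or 65.7%, a long non-coding RNA gene alone near 132, or 7.96%, and no gene near 433. These shares were 68.8%, 7.32% and 23.6% of all union regions. The median summit was 11515.5 bp from the nearest annotated gene end, against 9059 bp over all union regions and 132 bp for regions of all 6 libraries. Median widths were 449 bp for members, 529 bp for members of all 3 LL libraries, 341 bp for the mirror set and 417 bp for all union regions.

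The large chromosomes held members in proportion to their regions. Chromosomes 1 to 5 had 916 members, or 55.2%, and 54.3% of all union regions. Per chromosome, the share of union regions that were members lay between 1.66% and 2.37% on chromosomes 1 to 10. Chromosome Z had 98 members in 5514 regions, or 1.78%. The tiny chromosomes 29 to 39 had 19 in 931, or 2.04%, where the mirror set had 51, or 5.48%.

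Chromosome 16 stood out among chromosomes with more than 100 union regions. It had 17 members in 169 regions, or 10.1%, and 8 of these 17 were called in all 3 LL libraries. It also had 10 regions of the mirror set, or 5.92%, against 0.701% of all union regions. A high share on chromosome 16 was thus not particular to members. The LL-only share was 4.73% with all 3 LL libraries required, against 0.154% of all union regions, and 5.03% without LL replicate 3, against 1.62%. Without FL replicate 1 it was 20.4%, against 14% of all union regions, and at equal list lengths 9.01%, against 6.47%. The ratio of chromosome 16 to all union regions, 5.16 with the length minimum alone, was 1.46 and 1.39 in the last pair of settings.

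**Figure D4:**
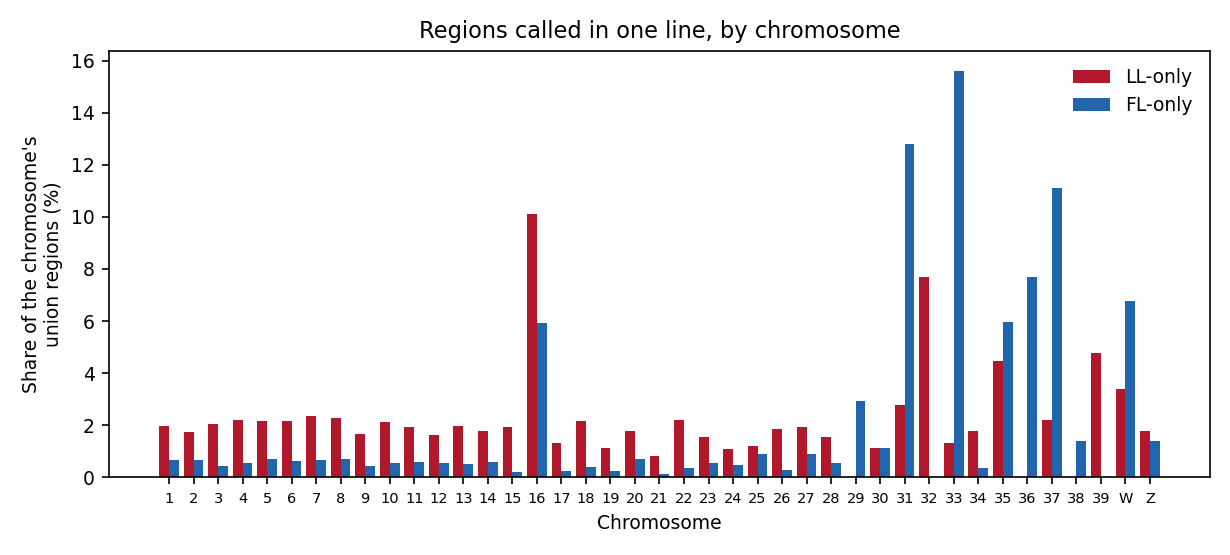
Share of each chromosome's union regions (vertical axis, %) that were LL-only (red) or FL-only (blue). Chromosome 16 has the highest LL-only share, 10.1% of 169 regions; chromosome 32 follows with 7.69% of 26 regions.

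Chromosome 16 carries the chicken major histocompatibility complex in 2 separate parts, the B locus and the Y locus. The Y locus holds class I-like MHCY genes, C-type lectin-like YLEC genes and relatives of LENG9, in many similar copies. Reads from near-identical copies can be placed on the wrong one, and the sources used here do not say how such reads were treated.

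Between 1274454 and 1806377 on chromosome 16, in the part that holds the MHCY genes, 14 of 30 union regions were members, 0 were FL-only and 0 were open in all 6 libraries. LL replicates 1 to 3 had a peak in 25, 10 and 18 of these regions, against 4, 0 and 2 in FL replicates 1 to 3. In the other 139 regions of the chromosome there were 3 members and 10 FL-only regions, and the libraries had 94, 33 and 49 in LL and 78, 59 and 28 in FL. The stretch was bounded by runs of members, so the low FL counts in it follow in part from the choice, and nothing is read from them.

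The densest group lay from 1781922 to 1806377, with 5 members in 7 union regions, 4 of them called in all 3 LL libraries. All 5 lay in or within 1 kb of LOC121106918. Its first member, 1289 bp wide, reached 22.1, 7.16 and 8.64 fold in LL replicates 1 to 3 and was within the top 6.79% of every LL list. No FL list had a peak within 3 kb of it, the nearest being 3226 bp away. Its last member, at MHCY35, reached 15.6, 7.8 and 8.64 fold but held short FL peaks of 142 bp in FL replicate 2, at 4.74 fold, and of 167 bp in FL replicate 3, at 9.3 fold.

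From 1274454 to 1468635, a longer run held 7 members in 15 union regions. Its best-ranked, at an annotated gene end in the span of MHCY15 (1463432 to 1463849), reached 15, 7.26 and 5.8 fold in LL replicates 1 to 3. It held a 173 bp peak of FL replicate 3 at 12.7 fold, which stood at 12% of that full list. The other 6 were each called in 2 LL libraries, all of them including LL replicate 3 and 5 of them LL replicate 1, and held no FL peak of any length. MHCY15 is annotated over 295994 bp and overlaps other genes, so 6 members fall in its span. The one at 1640494 to 1640996 was called in all 3 LL libraries, with 3.96, 3.38 and 10.2 fold in LL replicates 1 to 3, so that LL replicate 3 was highest there.

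Away from this locus, 1 member of chromosome 16 was called in all 3 LL libraries with high rank, at 632780 to 633108. It lay at the end of a LOC gene with no named coding gene within 100 kb, reached 15.3, 6.03 and 5.86 fold, and stood 27066 bp from the nearest FL peak.

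Runs of members also lay on other chromosomes. Of all members, 1080 had no other within 100 kb, and 402 lay in pairs. On chromosome 14, 4 members of all 3 LL libraries lay between 15211110 and 15293648, out of 7 union regions there. The first pair of them was inside ITGAD, an integrin chain of leukocytes, and the third, in no gene, reached 4.4, 10.6 and 7.71 fold in LL replicates 1 to 3 and held a 132 bp peak of FL replicate 2 that stood at 2.19% of its full list. A run on chromosome 3 (101581453 to 101798582) had 5 members in 38 union regions. Some of them lay inside HS1BP3, and 1 inside LDAH, a hydrolase associated with lipid droplets. One on chromosome 22 (4625230 to 4674949) had 5 in 15 and began 1060 bp from GPAT2, an acyltransferase of glycerolipid synthesis. The nearest named coding gene of its other members was FAHD2A. Another run, on chromosome 10 (19261613 to 19563059), had 5 in 40 and spanned TLE3, a corepressor that promotes fat cell formation in mouse. Its members nearest TLE3 lay 29689 and 39101 bp from it, and another lay inside GLCE. LDAH and GPAT2 are outside the naming rule given below, and like TLE3 they are named for roles in fat or lipids. Nothing is read from their presence.

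The best-ranked member of all lay in no gene, 14893 bp from TRMT1L (chromosome 8, 10734296 to 10734553), a relative of tRNA methyltransferases. LL replicates 1 to 3 had 20.8, 22.7 and 22.6 fold there, and it stood at 3.21%, 0.0668% and 0.173% of their lists. FL replicate 2 had a 151 bp peak in it, at 7.29 fold and 8.28% of its full list. A second member 22570 bp from TRMT1L, at 10741987 to 10742219, reached 9.01, 12.5 and 13.3 fold, and there too FL replicate 2 had a short peak, of 134 bp and 6.84 fold. Both regions were thus LL-only under the length minimum and not without it.

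Other leading members of all 3 LL libraries lay inside genes and held no FL peak of any length. In DENND5A, an activator of Rab GTPases in membrane traffic (chromosome 5, 9099550 to 9100029), the folds were 4.28, 3.78 and 3.15 in LL replicates 1 to 3. In SPTY2D1, a histone chaperone (chromosome 5, 12206904 to 12207267), they were 5.38, 3.89 and 3.3. A member 19007 bp from MAPK8IP3, a scaffold of JNK signalling (chromosome 14, 14384994 to 14385329), had 5.82, 6.47 and 8.53. These 3 show how the birds differed in order: LL replicate 1 was highest in the first pair and lowest in the last, although folds from different lists are no measure of change.

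STAB2, a scavenger receptor of sinusoidal endothelium that clears hyaluronan, held a pair of members called in all 3 LL libraries. The first (chromosome 1, 54841526 to 54842342) had 8.6, 4.9 and 3.39 fold in LL replicates 1 to 3, and the second (54876574 to 54877681) had 7.4, 3.35 and 3.28. They were 15791 and 23617 bp from the nearest FL peak. The gene had 7 union regions in all, with peaks in 6, 2 and 2 of them in the LL libraries and in 2, 0 and 0 in the FL libraries. In LL replicates 2 and 3 the peaks of STAB2 were this pair alone. The pair has LL peaks and no kept FL peak by the choice, so nothing is read from the contrast of these counts.

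DYSF, the membrane repair protein dysferlin of muscle, held a member at 90226164 to 90226681 on chromosome 4, with 8.75, 4.13 and 3.45 fold in LL replicates 1 to 3. A second member 4693 bp from the gene was called in LL replicates 1 and 2 and held a short peak of FL replicate 1. DYSF had 4 union regions, with peaks in 3, 1 and 1 of them in LL replicates 1 to 3 and in 3, 0 and 0 in FL replicates 1 to 3. These counts include the member, whose pattern the choice fixed, so nothing is read from their contrast.

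The region on chromosome 33 at 3816160 to 3816539 was the one leading member with a short peak in every FL library. Its folds were 6.41, 5.1 and 5.81 in LL replicates 1 to 3, against 3.83, 7.08 and 4.28 for FL peaks of 150, 176 and 149 bp. The peak of FL replicate 2 was 2 bp short of the minimum and stood at 2% of its full list.

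**Figure D5:**
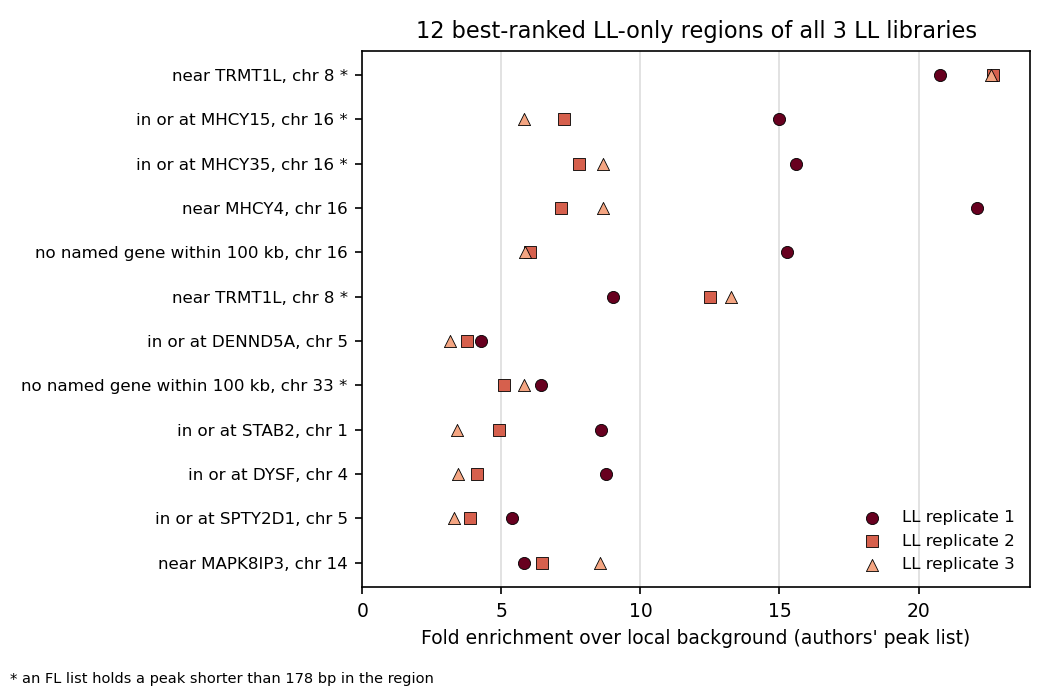
Fold enrichment over local background as the authors' lists give it (horizontal axis, linear) in LL replicates 1 to 3 for the 12 LL-only regions of all 3 LL libraries with the best poorest percentile, best at the top; stars mark the 5 regions with an FL peak below the length minimum. Folds reach 22.7 near TRMT1L and lie between 3.15 and 4.28 in DENND5A.

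Among members of 2 LL libraries, the best-ranked lay near the start of chromosome 10, at 12767 to 12996, with 7.06 and 7.09 fold in LL replicates 2 and 3 and short peaks in FL replicates 1 and 2. Next came a member inside CPNE4, a copine that binds phospholipid (chromosome 2, 42049646 to 42050134), with 6.33 and 5.24 fold in LL replicates 2 and 3 and no FL peak closer than 4857 bp. A member on chromosome 8 at 9203488 to 9204505, with no named gene within 100 kb, had 10.4 and 11.2 fold in LL replicates 1 and 2. The others of the best 8 lay at EHBP1L1, 12915 bp from VRK3, 11829 bp from MAN1A2, a Golgi mannosidase, 8146 bp from RUBCNL, an autophagy factor, and 34448 bp from TMEM47. The last pair held short FL peaks. LL replicate 1, in spite of its long list, had no kept peak in 6 of these 8.

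Of 17839 coding genes, 1026 had a member inside or within 1 kb, or 5.75%, and 397 had an FL-only region, or 2.23%. Genes with a member were long, with a median of 65034 bp against 12080 bp for all coding genes. Of the 4460 longest coding genes 15.9% held a member, and of the 4460 shortest 1.12%. As a share of the regions at genes, members were 2.02% in the longest genes and 1.47% in the shortest. Long genes thus weigh in the shares of gene lists, so each list below is given by its regions too, for which 1.84% at all coding genes is the share to compare with. No test of the lists was run, and nothing particular to a list is read from its count.

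Of 19 adipocyte identity genes found, 2 held a member, or 10.5% against 5.75% of all coding genes, and 2 of their 77 regions were members, or 2.6%. Their median length was 5397 bp. CIDEC, which fuses lipid droplets, held one at 18019396 to 18019796 on chromosome 11, with an FL peak 302 bp away. It had 2.25 and 2.63 fold in LL replicates 1 and 2. LPL, which frees fatty acids from lipoproteins, had one at 55214093 to 55214742 on chromosome Z, with 2.34, 2.52 and 2.92 fold in LL replicates 1 to 3. Both stood at 82.9% or beyond in LL replicates 1 and 2, and the member of LPL at 49.5% in LL replicate 3. Another member, with 8.94 and 2.65 fold in LL replicates 1 and 3, lay 27524 bp from LPL at 55187405 to 55188132. In the other 5 union regions of LPL the LL libraries had peaks in LL replicate 1 alone, and the region near its far end, at 55231427 to 55232139, had peaks in all 3 FL libraries.

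Regulators of fat cell formation held 7 members in 440 regions, or 1.59%, at 6 of 31 genes with a median length of 34334 bp. PRDM16, a zinc finger factor of thermogenic fat in mouse, was the one with a member in all 3 LL libraries (chromosome 21, 1325848 to 1326478), with 7.35, 3.22 and 3.03 fold and a short peak in FL replicate 1. It also held an FL-only region at 1380202 to 1380823. GATA3, which restrains preadipocytes in mouse and also directs T cells, had 6.75 and 4.12 fold in LL replicates 1 and 2, and ZFPM2, a partner of GATA factors, had 7.69 and 4.16. NCOA2, a coactivator of nuclear receptors, held a pair, both with short FL peaks. RXRG and CEBPD held 1 each, called in LL replicates 1 and 3. FOXO1, KLF6, KLF15 and TLE3 had a member within 50 kb and none closer than 1 kb. Short FL peaks lay in the KLF15 member and in the farther member of KLF6 and of TLE3.

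Of 25 genes of fatty acid and triglyceride synthesis, with a median length of 31850 bp, ME1 alone held members, 2 in the list's 128 regions or 1.56%. ME1 is the malic enzyme that supplies NADPH. One of its pair was called in all 3 LL libraries (chromosome 3, 77546014 to 77546628), with 3.08, 3.94 and 2.88 fold. The other was called in LL replicates 1 and 2 and held short peaks of FL replicates 1 and 3. ME1 had peaks in 18, 5 and 2 of its 21 regions in LL and in 12, 2 and 1 in FL, counts that include the pair chosen for this contrast. INSIG2, which holds back sterol synthesis, had a member 4597 bp away, with 3.73, 3.05 and 2.24 fold. Of 19 genes of lipolysis and fatty acid oxidation, with a median length of 24162 bp, 3 held a member, or 15.8%, and 3 of 130 regions were members, or 2.31%. Among them were PDE2A and CPT2, an enzyme of mitochondrial oxidation. The CPT2 member was called in LL replicates 1 and 2 and also lay in or within 1 kb of SLC1A7. ADRB1, an adrenergic receptor, had a pair nearby, the closer at 5151 bp.

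PDE2A, a phosphodiesterase that degrades cyclic AMP and cyclic GMP, held regions of both kinds, as did other list genes such as PRDM16, ZFPM2 and RORA, and is given in full because each of its regions was of one kind or the other (chosen after the values were seen). Its member on chromosome 1 at 194316031 to 194316583 had 5.17, 6.04 and 6.27 fold in LL replicates 1 to 3. The other 2 of its 3 union regions, at 194317597 to 194317812 and at 194342466 to 194342812, were FL-only, with 5.18 and 4.62 and with 3.95 and 4.37 fold in FL replicates 1 and 2. The gap between the member and the nearest FL peak was 1014 bp.

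In insulin and glucose signalling, 4 of 20 genes held 1 member each, all called in LL replicates 1 and 2. These were 20% of the genes, whose median length was 45302 bp, and 1.97% of their 203 regions. Among them were IRS2, a docking protein of the insulin receptor, PIK3R1, the regulatory subunit of PI3 kinase, and the kinase gene AKT1. The IRS2 member, 446 bp from the gene (chromosome 1, 138623932 to 138624543), had 7.9 and 2.92 fold and lay 43992 bp from any FL peak. The members in PIK3R1 and AKT1 held short FL peaks.

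Nuclear hormone receptor genes held 9 members in 351 regions, or 2.56%, at 6 of 32 genes with a median length of 42260 bp. NR3C1, the glucocorticoid receptor gene, had a pair. The one at 17089031 to 17089643 on chromosome 13 had 9.48, 4.21 and 3.2 fold in LL replicates 1 to 3, with an FL peak 258 bp away. NR3C1 had 25 union regions, with peaks in 25, 8 and 3 of them in LL and in 16, 2 and 3 in FL. Its pair of members, chosen for this contrast, is included in these counts. RORA, an orphan receptor tied to the circadian clock, held 3 members in 44 regions, 1 of them with short peaks of FL replicates 1 and 3. RXRG, NR4A1, ESRRG and NR1H4, the bile acid receptor gene, held 1 each, and the ESRRG member held a short peak of FL replicate 1. An FL peak lay 293 bp from the NR1H4 member.

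Genes of the matrix, with a median length of 53850 bp, held 5 members in 286 regions, or 1.75%, at 5 of 27 genes. COL4A1 of the basement membrane had one in all 3 LL libraries (chromosome 1, 138899098 to 138899674), with 10.7 fold in LL replicate 1 but 3.05 and 2.53 in LL replicates 2 and 3. Its neighbour COL4A2, with LAMA2, COL3A1 and COL6A3, held 1 each in 2 LL libraries. The COL3A1 member held short peaks of FL replicates 1 and 3, and an FL peak lay 172 bp from the COL4A2 member.

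Markers of other cell types held between 0 and 4 members a list. Endothelial genes had 4 in 142 regions, or 2.82%, in STAB2, FLT1, a VEGF receptor, and FLI1, an endothelial and blood factor. Myeloid genes had 2 in 53, or 3.77%, with 1 at PTPRC, and lymphocyte genes 3 in 94, or 3.19%, at GATA3, PTPRC and SH2D6, matched through the synonym BLNK. The SH2D6 member held a short peak of FL replicate 3, and an FL peak lay 343 bp from the PTPRC member. Fibroblast genes had 1 in 116, or 0.862%, at COL3A1, and neuronal and glial genes 1 in 58, or 1.72%, at SNAP25. The SNAP25 member also lay in or within 1 kb of PAK5. Skeletal muscle genes had 2 in 20, or 10%, at DYSF and TTN, and hepatocyte genes 1 in 9, or 11.1%, at F2. The median gene length of these 7 lists lay between 5495.5 bp in the myeloid and 29354 bp in the endothelial list. Smooth muscle and pericyte genes, mesothelial genes and housekeeping genes had 0 members in 69, 38 and 34 regions. The erythroid and thrombocyte list, with 10 of 16 genes found, had 0 in 11. The same lists had regions open in all 6 libraries at 8 of 14 housekeeping genes and at 1 of 21 endothelial genes, and the part of cell makeup in the members was not tested.

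Several members in 1 gene were found mainly in long genes. Of coding genes, 894 held 1 member, 110 held 2 and 22 held 3 or more. Apart from the MHCY locus the highest count was in GPC6, a glypican of the cell surface (chromosome 1, 146519460 to 147255570), with 6 members among 30 union regions, or 20%. None of its 30 regions was FL-only or open in all 6 libraries. Of all 85060 union regions, 596 (0.701%) were FL-only and 6283 were open in all 6 libraries, so nothing is read from their lack among 30. Of its 6 members 1 was called in all 3 LL libraries, with 6.95 fold in LL replicate 1 and a short peak of FL replicate 1, and the nearest FL peaks of the others were between 6708 and 52041 bp away.

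BICD2, an adaptor of the dynein motor, held 4 members in 26 regions, and FBRSL1 held 4 in 74, each called in LL replicates 1 and 2 and at 88.3% or beyond in LL replicate 2. MPHOSPH10, annotated over 1076704 bp, held 5 in 112, but it overlaps other genes. Its members also lay in or within 1 kb of APBA2, TJP1, THSD4, MYO1E and RNF111. CALCR, the calcitonin receptor gene, held 3 in 9, and CNTN4, a contactin of neurons, 3 in 11. ADAMTS17, a secreted protease, held 3 in 15, CDH4, a cadherin, 3 in 22, THSD7B 3 in 31, WWOX 3 in 39, LSAMP, a neural adhesion protein, 3 in 45, SLIT3, a guidance ligand, 3 in 50, and ARHGAP6, a GTPase-activating protein, 3 in 51. All 3 members of ARHGAP6 held a short peak of FL replicate 1. Short FL peaks also lay in some members of FBRSL1, MPHOSPH10, CALCR, CNTN4, CDH4, THSD7B, WWOX, LSAMP and SLIT3. In LL replicate 2, members stood as low as 98.9% in SLIT3, 98.5% in LSAMP, 97.8% in ARHGAP6 and 97% in CNTN4. CLC2DL4, a C-type lectin gene near the start of chromosome 1, held 3 in 37. The first of these (150256 to 150639) had 8.46 and 13.1 fold in LL replicates 1 and 2, and held a 128 bp peak of FL replicate 3 at 18 fold, which stood at 3.28% of that full list. Of the 22 genes with 3 or more members, 3 also held an FL-only region, namely MPHOSPH10, RORA and LOC112531831. Among all 1026 genes with a member 65 held one, and among all coding genes 2.23%. Genes with 3 or more members had a median length of 302698.5 bp, against 12080 bp for all coding genes, so nothing is read from the count.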

How the data were processed

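Per the submitters' processing notes, the build was GRCg7b, and the tools were MACS3 3.0.0b1, BWA, bedtools 2.30.0, FastQC, SAMtools and Trim Galore. The sources used here do not give settings, duplicate removal or any Tn5 shift. The authors deposited 1 peak list per library, holding for each peak the summit offset, a score, −log10 q, −log10 p and a fold enrichment (a ratio to local background). The deposited score was not used. No read totals were used, so depth is a background solved from the deposited fold and −log10 p as MACS defines them, for peaks with −log10 p under 300, within a relative tolerance of 1e-04.

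Peaks were merged in Python 3.11.15, and merging and solving were checked on simulated lists. RefSeq's GRCg7b gene table gave 17839 coding genes. Location used the summit of a region's best-ranked peak.

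Named were the 12 best members of all 3 LL libraries and the 8 best of 2, by poorest percentile, genes of 18 lists with a member inside or within 50 kb, and genes with 3 or more members. Promoter sequences were not used here, and some genes that the rule names are not reported here. The members and lists were chosen with earlier results of these data known. No set test was run. Library values were compared by an exact permutation of the 20 assignments. Each library came from a separate bird, per the series design text.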

Additional observations from a re-analysis of the deposited data

How the results depend on the processing

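The number of LL-only regions was 1658, and 951 with −log10 q of at least 5, 1051 with peaks of at least 300 bp and 131 with all 3 LL libraries required. Leaving out 1 library gave 193 to 11137, and where it was an LL library both of the others had to hold a peak. At equal list lengths the count moved little (1678), but 93 of the 1658 members were covered, and with peaks of at least 300 bp 415 were. Counting FL peaks of any length, an alternative chosen after seeing the data, left 1200. Of the 12 named members of all 3 LL libraries, 7 remained LL-only under that alternative, without a minimum length and at 300 bp, and 12 under each other alternative. Apart from the ways of merging peaks, those other alternatives could not remove regions chosen by rank in all 3 LL libraries. Nothing is read from their passing.

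The share at gene ends was 11.7% at 300 bp, 18.4% with summit windows, 13% with all 3 LL libraries, 17.1% with ends of 2 kb and 6.94% with coding genes only, and 9.54% to 13.5% with 1 library left out. The share inside genes was 58.2% with summit windows, 59.1% with ends of 2 kb and 58.8% with coding genes only, and 59.1% to 65.0% with 1 library left out. The share outside was 23.4%, 23.8% and 34.3% in those settings and 22.1% with all 3 LL libraries. For changed peaks, merging or gene ends, shares of the other sets are not given here. Chromosomes 1 to 5 held 52.7% at equal list lengths, 49.6% with all 3 LL libraries and 50.8% to 55.4% with 1 library left out. Chromosome 16 had 4.73% with all 3 LL libraries and 5.03% to 20.4% with 1 library left out. The cause was not tested. The mean of the LL libraries' median percentiles was 66.1 ± 15.8 (SD, n = 3). Under the alternatives it lay between 50.8, without FL replicate 1, and 69.0, at equal list lengths. The SD is the spread between the LL libraries and does not gauge these shifts.

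LL minus FL was 8569 kept peaks, -320 without a minimum length (exact permutation p = 1) and -8784.5 to 20692.5 with 1 library left out. With the replicate number as a block, the exact p was 0.25 for kept peaks and 0.5 for background (smallest possible 0.25). Same-numbered libraries had correlations of occupancy deviations of 0.138, 0.0759 and -0.0151, against -0.219 to 0.202 for libraries of different numbers. Such correlations cannot show whether same-numbered libraries were handled together, which was not tested.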
